A study of Mus musculus with 48 samples.

Results

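The genes described here encode the steps by which a fat cell builds triglyceride and makes the glycerol 3-phosphate that carries it. They were all probes that the array's gene column lists as GPD1, GPAM, AGPAT2, LPIN1, DGAT1, DGAT2, PCK1 or PCX. This rule gave 9 probes for 8 gene symbols, LPIN1 having 2 probes, out of 24613 probes for 18991 symbols. The cells were 3T3-L1, a clonal mouse fibroblast line that turns into fat cells in culture. All cultures received 50 nM siRNA before differentiation, either a non-targeting control pool (control siRNA) or a pool against PPARγ (PPARγ KD). At confluence, on day -2, every culture was given 0.5 mM isobutylmethylxanthine and 0.25 µM dexamethasone for 48 hours, and from day 0 it was given 5 µg/ml insulin and 1 µM rosiglitazone, a PPARγ agonist, for 48 hours. RNA of 3 biological replicates of each siRNA was hybridised on days -2, 0, 1, 2, 3, 4, 5 and 6, which made 48 arrays, 24 for each siRNA. The day -2 to day 0 step therefore spans the hormone treatment without rosiglitazone in both groups. All cultures kept beyond day 0 received rosiglitazone, so no comparison here isolates the drug.

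Triglyceride is assembled on glycerol 3-phosphate. GPD1 makes this backbone from the glycolytic intermediate dihydroxyacetone phosphate, GPAM adds the first fatty acid, AGPAT2 adds the next to give phosphatidic acid, LPIN1 removes the phosphate to give diacylglycerol, and DGAT1 and DGAT2 add the last fatty acid. In glyceroneogenesis, a route that fat cells use to make the backbone from pyruvate, PCX converts pyruvate to oxaloacetate and PCK1 converts oxaloacetate to phosphoenolpyruvate. PPARγ binds DNA as a heterodimer with RXR, classically at direct repeats of the hexamer AGGTCA separated by 1 base.

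All 8 symbols matched a RefSeq mouse gene, and RefSeq promoter windows of 300 bases (250 before to 50 after the annotated start, GRCm38.p6) were at hand for Agpat2, Pcx, Gpam, Lpin1 and Pck1. The windows of Agpat2 and of both annotated Pcx starts are printed because these are the members that changed on the arrays and have an entry. They are written 5′ to 3′ on the strand of the gene, with the hexamer AGGTCA or its reverse complement TGACCT in capitals.
Agpat2, chr2:26604368-26604667, minus strand: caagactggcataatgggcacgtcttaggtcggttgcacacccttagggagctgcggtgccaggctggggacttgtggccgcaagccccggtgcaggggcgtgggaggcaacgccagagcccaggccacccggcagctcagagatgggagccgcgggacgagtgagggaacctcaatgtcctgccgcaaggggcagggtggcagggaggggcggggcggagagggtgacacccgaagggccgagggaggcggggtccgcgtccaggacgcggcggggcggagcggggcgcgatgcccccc
Pcx, upstream start, chr19:4510222-4510521, plus strand: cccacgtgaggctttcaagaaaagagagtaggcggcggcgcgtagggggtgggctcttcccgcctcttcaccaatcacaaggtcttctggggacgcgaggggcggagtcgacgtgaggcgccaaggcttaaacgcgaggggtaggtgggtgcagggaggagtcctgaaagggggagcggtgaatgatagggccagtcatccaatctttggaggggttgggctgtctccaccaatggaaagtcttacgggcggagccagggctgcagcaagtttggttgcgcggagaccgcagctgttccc
Pcx, downstream start, chr19:4594069-4594368, plus strand: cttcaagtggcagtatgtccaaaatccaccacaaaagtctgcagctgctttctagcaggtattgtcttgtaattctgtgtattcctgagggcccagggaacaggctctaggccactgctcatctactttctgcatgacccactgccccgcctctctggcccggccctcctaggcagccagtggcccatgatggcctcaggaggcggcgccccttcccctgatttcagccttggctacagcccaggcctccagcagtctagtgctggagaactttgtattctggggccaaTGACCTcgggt
Of all 32851 windows of this length, 16.3% held the hexamer on either strand. Here it stood once in the downstream Pcx window, as TGACCT beginning 39 bases after the start, and in neither of the other windows printed. Of the member windows not printed, it stood once in that of Lpin1 and once in a window of Gpam. The full repeat AGGTCANAGGTCA was in 0.0396% of all windows and in none of the 7 member windows. A match of letters is a description of the sequence and not a measured binding site.

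The arrays held between 33.4% and 40.4% of probes above background, meaning a detection p under 0.01. Replicate 3 stood apart, at 33.4% to 35.4% against at least 36.8% in replicates 1 and 2, and the results that depend on it are given without it where they stand. The knockdown was checked on the brightest PPARG probe (6130632). It was lower under PPARγ KD in 24 of 24 replicate pairs, by 2.34 ± 0.04 on the log2 scale (SE), with levels of 18.8% of control on day -2 and 19.8% on day 6. By this probe PPARG still rose in the PPARγ KD cells, by 2.10 ± 0.11 from day -2 to day 6, against 2.02 ± 0.11 in control cells, and the difference between these rises was 0.07 ± 0.16. The other PPARG probes gave other values. Probe 2680603 went from 4.76 to 7.56 in control cells and from 4.76 to 5.15 under PPARγ KD, where it was above background on 0 of 24 arrays, and the difference between the rises was called (-2.41, adjusted p = 3.55e-06). In control cells it was above background on 8 of 24 arrays, and on day -2 on 0 of 3. This difference therefore does not measure a size. Probe 1990168 went from 7.10 to 9.27 in control cells and from 5.24 to 6.63 under PPARγ KD, where it was above background on 5 of 24 arrays, and the difference between the rises was -0.77 ± 0.26 and was not called. Adipocyte markers moved with the members. Of 10 adipocyte marker probes, 9 were called lower over the 8 days, where 6.74% of all probes were, with a median of -1.68. Only 8 of the 10 were above background on at least 3 arrays. Under PPARγ KD on day 6, 6 of the 10 were above background on none of the arrays. The median and the differences of those probes therefore do not measure a size. Over all 10 probes the summed signal on day 6 was 130000 to 141000 in control cells and 30400 to 33000 under PPARγ KD. None of 12 fibroblast marker probes was called lower and 6 were called higher over the 8 days, where 6.37% of all probes were, with a median of 0.33. Over days 4 to 6 only 1 of the 12 was called higher, against 1.54% of all probes, with a median of 0.18. Of the 12, 11 were above background on all 3 arrays of both siRNAs on days -2 and 6. No probe for leukocyte (6 probes), endothelial (3 probes) or epithelial (3 probes) markers was above background on at least 3 arrays, and of 4 muscle probes only ACTA1 was. In such bulk cultures, fewer fat cells and less RNA per fat cell cannot be told apart.

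Knockdown of PPARγ lowered 5 members over the whole course: GPD1, AGPAT2, DGAT1, DGAT2 and PCX. Averaged over the 8 days, 5 of the 9 member probes were called lower and none higher, where 6.74% of all probes were called lower. A probe was called when its limma p, multiplied by the 24613 probes tested (Bonferroni), was at most 0.05. The median log2 difference was -1.75 over the 9 member probes and -0.03 over all probes. The other 4 probes, for GPAM, LPIN1 and PCK1, were above background on fewer than 3 arrays each. The levels of the 5 genes on every array, with PPARG beside them, separate by siRNA from day 0 onward. How many of all probes separate in this way was not counted, so these separations, here and below, are a description only.

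**Figure D1:**
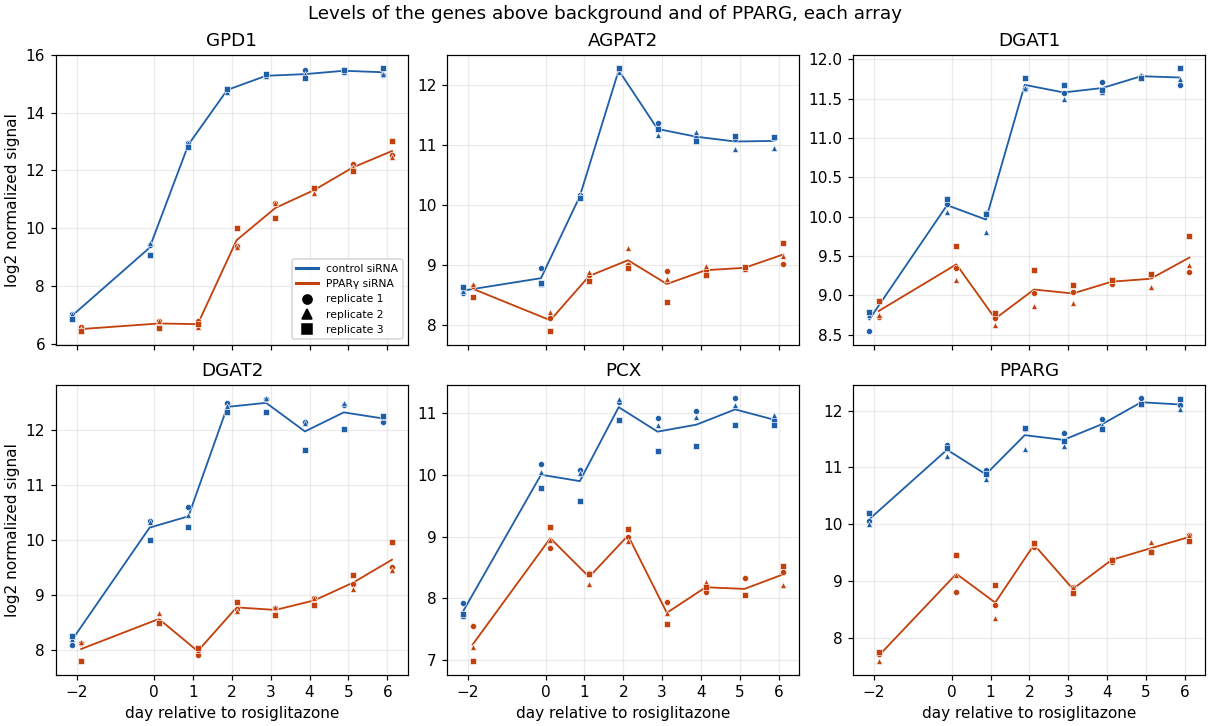
Log2 normalized signal (y axis) of GPD1, AGPAT2, DGAT1, DGAT2, PCX and the brightest PPARG probe on each array by day relative to rosiglitazone (x axis), control siRNA in blue and PPARγ siRNA in orange. Symbols are replicates 1 to 3 and lines join the means. Each panel has its own scale, and on days 0 to 6 every PPARγ siRNA array lies below every control array in all panels.

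GPD1, the source of glycerol 3-phosphate from glycolysis, showed the widest range. On day -2 its log2 signals were 7.02, 7.02 and 6.84 in control cells and 6.58, 6.51 and 6.42 under PPARγ KD. On day 1 they had reached 12.94, 12.94 and 12.81 in control cells, and were 6.79, 6.56 and 6.67 under PPARγ KD. The groups did not overlap on any of the 8 days. Under PPARγ KD the probe was above background on 2 of 3 arrays on each of days -2, 0 and 1, so the lowest levels stood close to the detection limit. The difference on day 1 was -6.22 ± 0.14 (SE of the fit to all 48 arrays, n = 3 pairs on the day, adjusted p = 1.52e-29), and -5.30 without background correction. It was already -2.63 ± 0.14 on day 0, before rosiglitazone was added (-1.90 without background correction), and narrowed after day 1 through -5.21, -4.58, -4.01 and -3.34 to -2.73 ± 0.14 on day 6, when 15.0% of the control level remained. On day 6 the signals were 15.32, 15.35 and 15.55 in control cells and 12.52, 12.48 and 13.02 under PPARγ KD. The deposited signal of GPD1 reached 50606.8 in control cells, where the highest of any probe was 67066.3. On days 5 and 6 only 12 to 27 probes were brighter on a control array. Whether signals this bright were compressed was not tested. The knockdown effect on GPD1 was smaller late, over days 4 to 6, than early, over days 0 to 2, by 1.32 ± 0.11 (adjusted p = 1.35e-09). Without background correction this change in the effect was 0.77 and was still called. It was positive in all 3 replicates (1.35, 1.40 and 1.21), while the same change was negative for the other 4 genes.

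GPAM, the mitochondrial acyltransferase of the first acylation, gave no measurable level. Its probe (1740180) was above background on 0 of 48 arrays, with deposited signals from 106.6 to 173.4 in control cells and from 84.9 to 143.0 under PPARγ KD. The lowest signal that counted as above background ranged from 139.1 to 206.0 between arrays.

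AGPAT2, the acyltransferase of the next step, peaked in control cells on day 2. Its log2 signals there were 12.25, 12.22 and 12.29, against 9.0, 9.29 and 8.95 under PPARγ KD. By day 6 they were 11.13, 10.95 and 11.14 in control cells and 9.02, 9.15 and 9.36 under PPARγ KD. All KD values lay below all control values on days 0 to 6, and the groups overlapped on day -2. The difference was largest on day 2, at -3.17 ± 0.11 (adjusted p = 2.87e-23), with 11.1% of the control level left, and was -1.90 ± 0.11 on day 6. The day 0 difference of -0.70 ± 0.11 was called with all 3 replicates and lost its call with any of them left out (-0.64 without replicate 1, -0.82 without replicate 2 and -0.65 without replicate 3). No difference was called on day -2 (0.03 ± 0.11).

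LPIN1, the phosphatidic acid phosphatase, was likewise below detection. Both of its probes were above background on 0 of 48 arrays, with deposited signals between 87.5 and 140.1 for probe 1770358 and between 71.4 and 118.1 for probe 3120059 over both siRNAs. No fold is given for GPAM or LPIN1, and their place in the plot of the deposited signals shows only that these probes read background.

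DGAT1 and DGAT2 catalyse the same last step with unrelated proteins, and both were lower under PPARγ KD from day 0. DGAT1 had log2 signals of 11.62, 11.64 and 11.77 in control cells on day 2 and 9.03, 8.87 and 9.32 under PPARγ KD. DGAT2 had 12.49, 12.44 and 12.33 in control cells on that day and 8.74, 8.71 and 8.87 under PPARγ KD. For both genes the groups were apart on days 0 to 6 and not on day -2. The DGAT1 difference was -0.75 ± 0.09 on day 0, -1.26 ± 0.09 on day 1 and -2.60 ± 0.09 on day 2, and then stayed between -2.58 and -2.29 through day 6. Its day 0 call was lost without replicate 1 (-0.72) and without replicate 2 (-0.70). The DGAT2 difference was -1.66 ± 0.13 on day 0, reached -3.77 ± 0.13 on day 3 (adjusted p = 6.82e-23), with 7.35% of the control level left, and was -2.57 ± 0.13 on day 6. The late effect exceeded the early effect for DGAT1 by 0.91 on the log2 scale (a change of -0.91 ± 0.07, adjusted p = 8.75e-11). For DGAT2 the same change, -0.33 ± 0.10, was not called.

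In the route from pyruvate, PCX was called and PCK1 was not. PCX had log2 signals of 7.93, 7.72 and 7.74 in control cells on day -2 and 7.56, 7.22 and 6.98 under PPARγ KD. On day 3 these were 10.91, 10.80 and 10.38 in control cells and 7.94, 7.77 and 7.59 under PPARγ KD. The KD values lay below the control values on all 8 days. The difference was -0.54 ± 0.13 on day -2, not called, though it passed with Benjamini-Hochberg adjustment (adjusted p = 0.00827). On day 0 it was -1.02 ± 0.13, a call that was lost without replicate 1 (-0.86) and without replicate 2 (-0.99). It was -2.07 ± 0.13 on day 2 and -2.93 ± 0.13 on day 3 (adjusted p = 8.61e-19), with 13.1% of the control level left. The late effect on PCX exceeded the early effect (a change of -1.13 ± 0.11, adjusted p = 2.30e-08), and this held in all 3 replicates (-1.03, -1.10 and -1.25).

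PCK1, the enzyme that commits oxaloacetate to glyceroneogenesis, was above background on 2 of 48 arrays, both of control cells on day 6. The deposited signals on that day were 246.1, 176.7 and 99.7 in control cells and 81.9, 116.6 and 82.8 under PPARγ KD. The high arrays were replicates 1 and 2, and replicate 3 read at the level of the knockdown. The fitted day 6 difference was -1.19 ± 0.29 and was not called, with an SD of 1.23 between replicates. The fit passed the threshold without replicate 3 on day 6 (-1.86, adjusted p = 0.000887), over the mean of days (-0.53, adjusted p = 0.0211) and for the control rise from day -2 to day 6 (2.11, adjusted p = 0.000113). With Benjamini-Hochberg adjustment and all 3 replicates it passed on day 6 (adjusted p = 0.00253), over days 4 to 6 (0.0135) and over the mean of days (0.0051). It also passed for the control rise (0.000259) and for the difference between the control and PPARγ KD rises (0.0413). These fits take signals below detection at face value, since all 24 knockdown arrays and every control array before day 6 read below background, so they do not measure a size. With the detection limit taken as the knockdown level on day 6, 6.49 against a control mean of 6.34, no fold can be given. That mean includes replicate 3 (5.35), itself below background, while replicates 1 and 2 were at 7.08 and 6.58. The bound therefore cannot decide whether PCK1 differed. Replicate 3 also had the fewest probes above background, and the part of this in the PCK1 values was not tested.

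**Figure D2:**
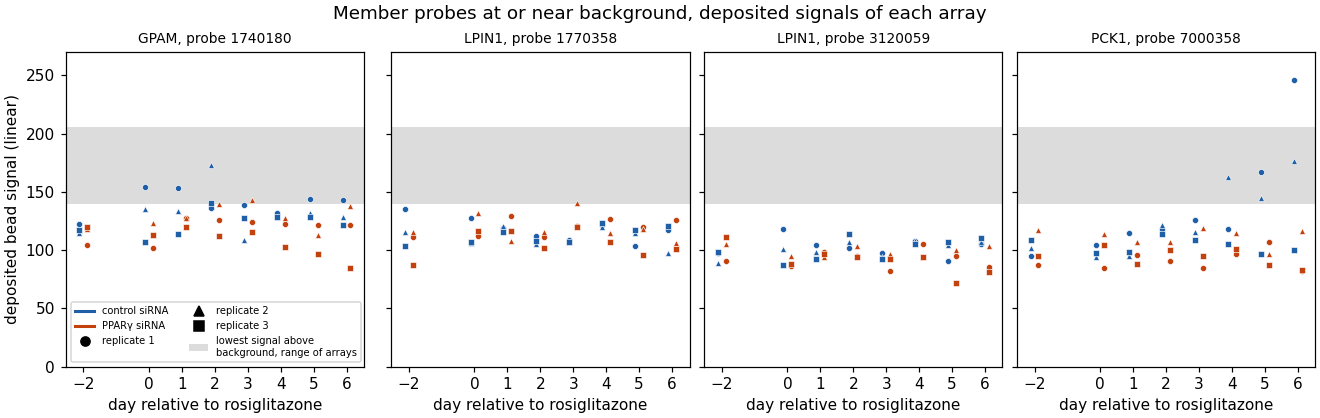
Deposited bead signal on a linear scale (y axis) of the GPAM, LPIN1 and PCK1 probes on each array by day (x axis), control siRNA in blue and PPARγ siRNA in orange, with symbols for replicates 1 to 3. The grey band spans the lowest signal counted as above background on the different arrays, from 139.1 to 206.0. PCK1 in control replicates 1 and 2 on day 6, at 246.1 and 176.7, are the 2 points called above background.

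Day by day, the share of members called can be set against the whole array. On day -2, 0 of the 9 probes were called lower, where 0.674% of all probes were, although 2 had an unadjusted p under 0.05. On each later day 5 of 9 were called lower, against 1.37% of all probes on day 0, 1.49% on day 1, 4.18% on day 2, 2.29% on day 3, 2.13% on day 4, 2.68% on day 5 and 3.09% on day 6. PPARG itself was already at 18.8% of control on day -2, when none of the members was called with Bonferroni adjustment. PCX passed on that day with Benjamini-Hochberg adjustment. Fitted on the 18 arrays of days 4 to 6 alone, the same 5 probes were called lower, against 3.77% of all probes. The differences there were -3.36 ± 0.07 for GPD1, -2.92 ± 0.09 for DGAT2, -2.68 ± 0.07 for PCX, -2.44 ± 0.06 for DGAT1 and -2.08 ± 0.06 for AGPAT2, each negative in 9 of 9 replicate pairs. The change of the effect from early to late was called for 3 of 9 member probes in either direction, against 3.63% of all probes, and took opposite signs for GPD1 and for DGAT1 and PCX. In the plot of the effect by day, the GPD1 path lies below those of DGAT1 and PCX from day 0 to day 6. It comes closer to them on the late days.

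**Figure D3:**
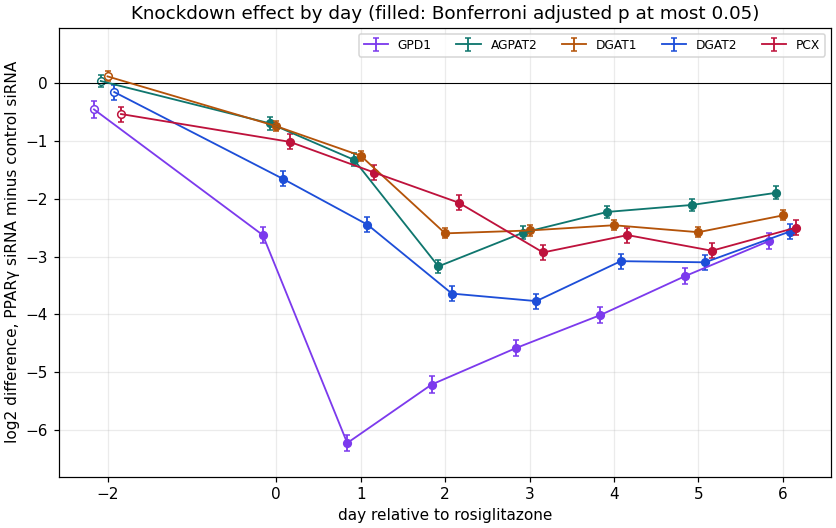
Log2 difference between PPARγ siRNA and control siRNA (y axis) by day (x axis) for GPD1, AGPAT2, DGAT1, DGAT2 and PCX. Points are fitted means of 3 replicate pairs, filled where the Bonferroni adjusted p was at most 0.05. Bars are the SE of the fit, whose spread is shared by all 48 arrays, and not the spread of the 3 pairs. GPD1 falls to -6.22 on day 1 and returns to -2.73 on day 6, and the 5 genes then lie between -2.73 and -1.90.

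In control cells all 5 genes rose in differentiation. From day -2 to day 6, 5 of 9 member probes were called higher, against 4.11% of all probes, with a median of 2.50 over the members and 0.09 over all probes. GPD1 rose by 8.45 ± 0.14 (7.64 without background correction), DGAT2 by 4.03 ± 0.13 (16.4-fold), PCX by 3.09 ± 0.13 (8.54-fold), DGAT1 by 3.08 ± 0.09 (8.45-fold) and AGPAT2 by 2.50 ± 0.11 (5.65-fold). The steps by which they arrived differed. During the hormone treatment from day -2 to day 0, GPD1 (2.36), PCX (2.20), DGAT2 (2.05) and DGAT1 (1.45) were called higher, and AGPAT2 was not (0.21 ± 0.11). In the first day of insulin and rosiglitazone only GPD1 (3.57) and AGPAT2 (1.37) were called, both higher, while DGAT1 (-0.18), DGAT2 (0.20) and PCX (-0.10) were not. From day 1 to day 2 all 5 were called higher, by 2.10 for AGPAT2, 1.99 for DGAT2, 1.90 for GPD1, 1.71 for DGAT1 and 1.19 for PCX. From day 2 to day 3, after the 48 hours of insulin and rosiglitazone, AGPAT2 fell by 0.98 on the log2 scale (adjusted p = 8.27e-07). The other 4 genes moved by -0.39 to 0.49 and were not called. All 12 of these step calls held with any replicate left out. The counts of member probes called, 4, 2, 5 and 1 of 9 in these steps, stood against 9.06%, 9.06%, 3.41% and 8.45% of all probes called in either direction. In the 3 later steps none of the 9 probes was called, though 1 probe in each had an unadjusted p under 0.05, and 0.934%, 0.163% and 0.0691% of all probes were called.

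The genes thus made the early part of their rise at different times, and all had at least 92.7% of it by day 2. PCX had 71.2% of its whole log2 rise on day 0, DGAT2 50.8%, DGAT1 47.2%, GPD1 28.0% and AGPAT2 8.25%. On day 1 GPD1 had 70.3% and AGPAT2 63.1%. On day 2 AGPAT2 stood at 147% of its day 6 rise, and the others were between 92.7% and 107%.

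**Figure D4:**
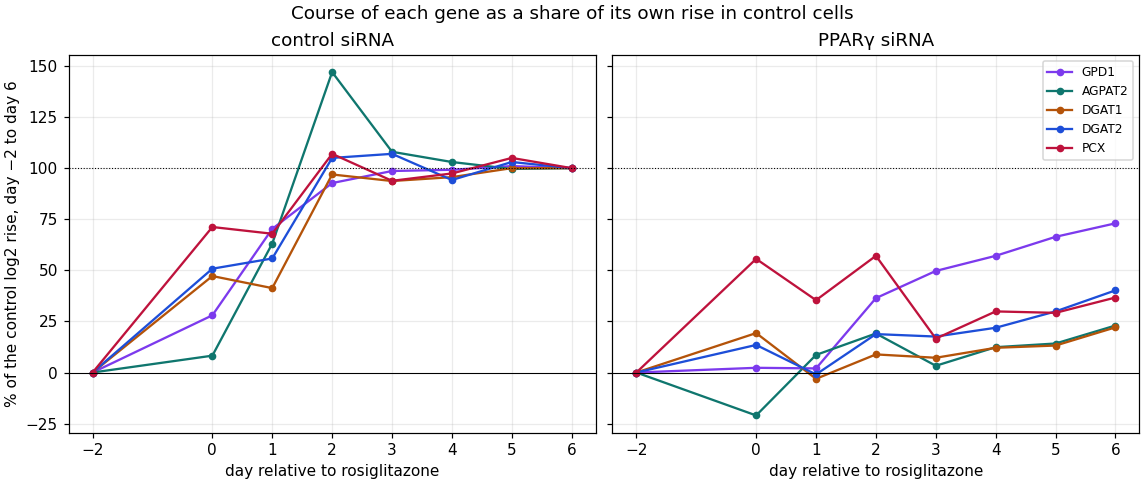
Mean level of each gene relative to its own day -2, as a percent of its log2 rise from day -2 to day 6 in control cells (y axis), by day (x axis), for control siRNA (left) and PPARγ siRNA (right), both relative to the control rise. In control cells the 5 genes reach 92.7% to 147% by day 2. Under PPARγ siRNA they end at 22.1% to 73.0%, with PCX at 55.6% on day 0 and 16.6% on day 3.

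Under PPARγ KD the rise was smaller for all 5 genes and not absent. From day -2 to day 6, 4 of 9 member probes were called higher, against 2.49% of all probes, whose median also rose by 0.12. GPD1 rose by 6.17 ± 0.14 (5.20 without background correction, and from day -2 arrays of which 2 of 3 were above background), DGAT2 by 1.62 ± 0.13, PCX by 1.14 ± 0.13 and DGAT1 by 0.68 ± 0.09. The DGAT1 call was lost without replicate 2 (0.70) and without replicate 3 (0.61). AGPAT2, at 0.57 ± 0.11, was not called, but was with quantile normalization (adjusted p = 0.0103) and among probes passing the filter on dim probes (adjusted p = 0.0272). As shares of the control rise on the log2 scale these were 73.0% for GPD1, 40.2% for DGAT2, 36.7% for PCX, 23.0% for AGPAT2 and 22.1% for DGAT1. The difference between the 2 courses was itself called for 5 of 9 member probes, all with the smaller rise under PPARγ KD, against 2.09% of all probes. It was -2.41 ± 0.18 for DGAT2, -2.40 ± 0.12 for DGAT1, -2.28 ± 0.20 for GPD1, -1.96 ± 0.18 for PCX and -1.93 ± 0.15 for AGPAT2. These differences spanned -2.41 to -1.93, while the control rises of the same genes spanned 2.50 to 8.45.

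Step by step under PPARγ KD, the largest moves were those of GPD1 and PCX. GPD1 changed by 0.20 ± 0.14 to day 0 and -0.02 ± 0.14 to day 1, neither called, and rose by 2.91 ± 0.14 (2.18 without background correction) from day 1 to day 2, 1 day after the largest control step. It then gained 1.12 to day 3, 0.62 to day 4, 0.79 to day 5 and 0.56 to day 6, of which the steps to days 3 and 5 were called. Both of those calls were lost without replicate 1 (0.95 and 0.75) and without replicate 2 (0.92 and 0.74), and the day 5 call also with no replicate block and with quantile normalization (0.81). PCX rose by 1.72 ± 0.13 during the hormone treatment and fell by 1.25 on the log2 scale from day 2 to day 3 (adjusted p = 3.35e-07), when control PCX changed by -0.39 ± 0.13. AGPAT2 rose by 0.74 from day 0 to day 1, a call lost with any replicate left out (0.76, 0.78 and 0.68 without replicates 1, 2 and 3). DGAT1 rose by 0.59 to day 0 and fell by 0.69 to day 1. Its rise lost its call with any replicate left out (0.58, 0.66 and 0.54) and with no replicate block, and its fall without replicate 1 (-0.72) and without replicate 3 (-0.61). DGAT2 rose by 0.80 to day 2, which was not called without replicate 1 (0.77), without replicate 2 (0.84), with no replicate block, with quantile normalization (0.74) or without background correction (0.63). The counts of member probes called in the steps to days 0, 1, 2 and 3 were 2 each, against 7.39%, 8.38%, 2.45% and 1.90% of all probes in either direction. In the step to day 5, 1 of 9 was called, against 0.0609%. In the steps to days 4 and 6 none was called, with 3 and 4 probes at an unadjusted p under 0.05, against 0.345% and 0.0203% of all probes.

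Whether a step differed between the siRNAs was tested directly. From day -2 to day 0, 3 of 9 member steps were called smaller under PPARγ KD, against 0.662% of all probes in either direction: GPD1 (-2.17 ± 0.20), DGAT2 (-1.50 ± 0.18) and DGAT1 (-0.86 ± 0.12). The DGAT2 call was lost without replicate 1 (-1.32) and without replicate 2 (-1.45), and the DGAT1 call with any replicate left out (-0.79, -0.86 and -0.92) and with no replicate block. The PCX step over that treatment differed by -0.48 ± 0.18 and was not called. From day 0 to day 1, 1 of 9 was called, GPD1 at -3.60 ± 0.20, against 0.492% of all probes. From day 1 to day 2, 3 of 9 were called, against 2.08%, namely AGPAT2 (-1.84 ± 0.15), DGAT1 (-1.35 ± 0.12) and DGAT2 (-1.19 ± 0.18, not called without replicate 1 at -1.27 or replicate 2 at -1.16). GPD1 differed the other way in that step, by 1.01 ± 0.20, and was not called. In the 4 later steps no member was called, with 4, 3, 1 and 4 probes at an unadjusted p under 0.05, and 1.51%, 0.0447%, 0.0244% and 0.00406% of all probes were called. The PCX fall from day 2 to day 3 was therefore called within PPARγ KD cells and not as a difference from control cells (-0.86 ± 0.18).

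The wider glycerolipid pathway showed no common direction, with a few large changes inside it. Of 29 listed symbols, 17 were on the array with 25 probes, 17 of them above background on at least 3 arrays. Over the 8 days 6 probes for 4 genes were called lower and 3 probes for 2 genes higher, beside 6.74% lower and 6.37% higher among all probes. The list's median of -0.03 equalled that of all probes. AQP7, the channel through which fat cells pass glycerol, passed detection by probes 2760576 and 2810072 on 15 of 24 arrays with control siRNA and 0 of 24 with PPARγ siRNA. Over days 4 to 6 it was at least 6.25-fold and at least 6.36-fold higher in control cells by these probes. These bounds take the detection limit of each knockdown array as its level and were not tested themselves. The limma fits, which take values below detection at face value, gave adjusted p = 7.91e-14 and 1.54e-12. The remaining AQP7 probe (2940722) was among those called lower (-0.31) and was above background on no array. BSCL2, the lipid droplet protein seipin, differed by -1.03 ± 0.03 over the 8 days. GYK, glycerol kinase, which makes glycerol 3-phosphate from free glycerol, differed by -0.40 ± 0.05 on a probe above background on 22 control and 18 knockdown arrays, and the phosphatidate phosphatase PPAP2B by 0.28 ± 0.03 and 0.32 ± 0.03 on its called probes.

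Among 25 listed genes of glyceroneogenesis and pyruvate use, 21 were on the array with 27 probes, 20 of them above background on at least 3 arrays. Of the 27, 10 probes for 9 genes were called lower over the 8 days and 1 higher, beside 6.74% and 6.37% of all probes, and the median was -0.09. The dicarboxylate carrier SLC25A10 differed by -1.45 ± 0.03, from log2 signals of 9.44 and 11.73 in control cells on days -2 and 6 to 9.52 and 9.73 under PPARγ KD. The citrate carrier SLC25A1 differed by -0.84 ± 0.04 and the cytosolic malate dehydrogenase MDH1 by -0.71 ± 0.05 on its brighter probe. The pyruvate dehydrogenase kinase PDK4 was the gene called higher, by 0.63 ± 0.04, and over days 4 to 6 it was not called (0.20 ± 0.06). PDK2 was called lower (-0.38) although its probe was above background on no array.

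Phospholipid synthesis branches off at phosphatidic acid and diacylglycerol. Of 25 listed genes, 21 were on the array with 27 probes, 18 of them above background on at least 3 arrays. Over the 8 days 5 probes for 4 genes were called lower and 1 higher, beside 6.74% and 6.37% of all probes, with a median of -0.03. CHPT1, choline phosphotransferase, differed by -1.13 ± 0.05 on its brighter probe. PEMT, which methylates phosphatidylethanolamine, passed detection on 18 of 24 arrays with control siRNA and 6 of 24 with PPARγ siRNA. Over days 4 to 6, with 1 of 9 knockdown arrays above background, it was at least 2.76-fold higher in control cells. This bound was not tested itself, and the limma fit, which takes values below detection at face value, gave adjusted p = 1.46e-08. PCYT2, which makes CDP-ethanolamine, differed by -0.57 ± 0.04 and -0.51 ± 0.03 on its probes, and PCYT1B by 0.37 ± 0.04. Over days 4 to 6 PCYT1B was not called (0.10 ± 0.05).

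**Figure D5:**
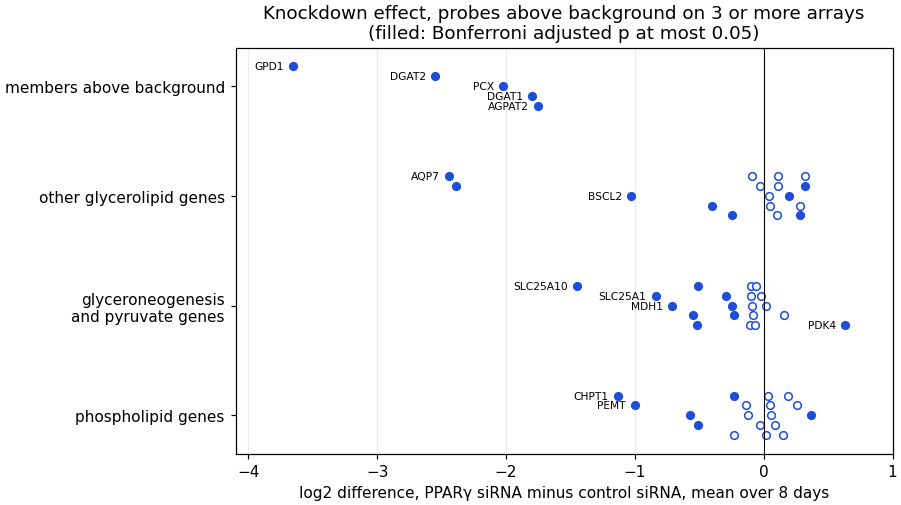
Log2 difference between PPARγ siRNA and control siRNA averaged over 8 days (x axis) for the 5 members above background and for probes of the wider lists above background on at least 3 arrays, 1 point a probe, filled where called. The vertical jitter has no meaning. The members lie between -3.65 and -1.75, while most probes of the lists lie near 0, with AQP7, SLC25A10, CHPT1, BSCL2 and PEMT at -1.0 or below.

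The genes with the most similar course were found by Pearson correlation over the 16 means of siRNA and day, among the brightest probes of 8720 other symbols. Genes compared were read on the same arrays, and the points hold a common split by siRNA, so r is given as a description. GPD1 was most like ADIPOQ (0.991), SORT1 (0.977) and CIDEC (0.972). AGPAT2 was most like MDH1 (0.982), PEX19 (0.979) and TMEM120A (0.978). DGAT1 was most like LIPE (0.992), ACADVL (0.987) and DGAT2 (0.986), and DGAT2 was most like PNPLA2 (0.990), DGAT1 (0.986) and DCI (0.984). LIPE and PNPLA2 encode the lipases that break triglyceride down. PCX was most like RETSAT (0.979), S100A8 (0.975) and DBI (0.974). Between members the lowest value was 0.765, for GPD1 with PCX, and the highest was that of the DGAT1 and DGAT2 pair.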

How the data were processed

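Total RNA of 3T3-L1 cells was labelled as biotin cRNA and hybridised to Illumina MouseRef-8 v1.1 bead arrays. Per the file headers, the authors exported the table from BeadStudio 3.3.7 with normalization set to none. The deposited values used were the signal intensity per probe, the detection value as a fraction (1 minus the detection p) and the number of beads, 16 to 59 for a member probe on an array. The study's rank-invariant normalized values and its analysis of variance were not used here.

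In R 4.3.3, limma 3.58.1 removed background from the intensities (normexp from the detection p, offset 16). They were then scaled between arrays on rank-invariant probes (factors 0.730 to 1.58) and taken to log2. A level is this log2 normalized signal, and levels of different probes are not compared. A linear model was fitted to all 24613 probes, with 1 coefficient per combination of siRNA and day and a block for the replicate number, and p-values were Bonferroni adjusted as the study did, with a threshold of 0.05. The SE given is that of this fit, with 1 moderated spread per probe shared by all 48 arrays. In the fit of days 4 to 6 alone it is shared by 18 arrays. It is not the spread between the 3 pairs of a day. The study calls the replicates biological, and the sample titles give only their number. Same-numbered arrays of both siRNAs deviated together in all 24 pairs (r 0.544 to 0.914 over 10567 probes), and this is where the pairing comes from. The numbers did not mark the closest pair throughout: 16 of 24 control arrays correlated best with their own number, and control replicate 1 correlated with KD replicate 2 at 0.781 on average. Figures were drawn with matplotlib 3.10.9.

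The members and lists were chosen with earlier results of these data known, and the tests of differences between daily steps were added after the data were seen. The genes named are all member probes, the PPARG probe, up to 4 called genes of each list with the largest change, and the 3 genes most like each member above background; ACTA1, PDK2 and the AQP7 probe below background were named after their values were seen. Alternatives were quantile normalization, no background correction, offset 50, a filter on dim probes, no replicate block, each replicate left out, and Benjamini-Hochberg adjustment. The number of arrays limits the precision.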

Additional observations from a re-analysis of the deposited data

Results flagged for a closer look

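The knockdown effect changed between early days (0 to 2) and late days (4 to 6) for 3 members by the test of that difference. It shrank by 1.32 for GPD1 and grew for DGAT1 (-0.91) and PCX (-1.13), all on the log2 scale and in all 3 replicates of each gene. The rise from day -2 to day 6 differed between the siRNAs for 5 members by the same kind of test, and was smaller under PPARγ KD by -1.93 for AGPAT2, -2.40 for DGAT1, -2.41 for DGAT2, -2.28 for GPD1 and -1.96 for PCX.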

How the results depend on the processing

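Of 103 single-gene differences recomputed under 9 alternatives, 869 of 922 values kept their direction and their side of the threshold. Another 37 lost the call, 14 gained it and 2 changed sign. The values that changed sign were the AGPAT2 difference on day -2, not called at 0.03, which was -0.02 to 0.12 with a replicate left out, and -0.02 without replicates 1 and 2 in turn. For GPD1, AGPAT2, DGAT1, DGAT2 and PCX, the differences over 8 days, over days 4 to 6, between the courses and along the control course kept direction and call under every alternative run. The changes of effect from early to late days called for member probes went from 3 to 5 with Benjamini-Hochberg adjustment. Member steps called along the knockdown course, 9 in the fit reported, were 6 with no replicate block, 3 to 7 with a replicate left out and 18 with Benjamini-Hochberg adjustment. Step differences between the siRNAs, 7 in the fit reported, were 6 with no replicate block, 4 to 10 with a replicate left out and 15 with Benjamini-Hochberg adjustment. The replicate block, taken from the pairing of the arrays, changed no other call of a member except DGAT1, DGAT2 and GPD1 steps named with their values. Over all probes, those called lower over the 8 days were 1660, against 1034 with no replicate block, 972 without replicate 1, 1102 without replicate 2 and 3851 with Benjamini-Hochberg adjustment. A BeadChip block was not run because the table used here does not name BeadChips. Signal over background limits GPAM, LPIN1, PCK1 and the earliest GPD1 values under PPARγ KD.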
